A study of Homo sapiens with 36 samples.

Results

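SCAF8 is an SR-related protein that binds the C-terminal repeat domain of RNA polymerase II (RNAPII), and its RNA was compared here with the RNA recovered by the same FLAG immunoprecipitation (IP) from untagged parental cells. The comparison used 6 of the 15 cluster lists read from the series, 3 from the SCAF8 IP and 3 from the control IP, chosen by antibody, line and replicate number and not by any measured value. Together they held 98551 of 256563 clusters. Both lines were Flp-In T-REx HEK293, a human embryonic kidney line. The SCAF8 line carried 1 integrated copy of doxycycline-inducible FLAG/HA-SCAF8 beside its endogenous SCAF8 gene and was a single clone, and the parental line carried no tagged protein. Per the labels, doxycycline (100 ng/mL, overnight) went to the tagged lines. The study's methods give a higher dose and also treat the parental cells. All cells received 4-thiouridine (4SU) at 100 μM overnight and a 2 h pulse at 500 μM before UV light at 2000 J/m2. For each replicate, soluble and chromatin extracts were immunoprecipitated and sequenced as 2 libraries, whose reads were merged before clusters were called.

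PAR-CLIP joins a protein to 4SU-labelled RNA with light, and the joined base is later read as C in place of T. A cluster is a stretch of RNA in which such changes pile up. SCAF8 and its paralog SCAF4 carry a CTD-interacting domain, which binds phosphorylated RNAPII, and an RNA-recognition domain, and they are known for holding back the use of early polyadenylation sites. An IP from cells without the tag recovers RNA that sticks to beads or antibody, so it gives the background against which the SCAF8 clusters were set. Each cluster has a position and a score, from 0.502 to 1, on a scale that the sources used here do not define. The lists hold no read numbers, so depth is unknown and a missing cluster cannot be told from too few reads.

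The regions that differ most plainly between both IPs are shown first. Of the merged SCAF8 regions, 1641 on 1226 genes were present in all 3 SCAF8 IP lists and absent from every control IP list and every input list of both lines. By contrast, 714 regions on 494 genes were present in all 6 IP lists. The 4 best-scoring stretches of 40 to 200 nt in each set, outside untranslated regions and at most 1 per gene, are given below in GRCh38 (5′ to 3′ on the transcribed strand). Capitals mark the motifs counted further on: CGG or CGA, a CAG motif of 5 letters (C or G, then CAG, then C or G), and CTCC or CACC. Present with SCAF8 and not with the control were stretches of ATP5PD (a subunit of ATP synthase, coding exon 5), CPNE1 (copine 1, coding exon 5), YBX1 (an RNA-binding protein, intron 3 into coding exon 4) and HELLS (a chromatin remodeller, coding exon 16 into intron 16):
ATP5PD, chr17:75039212-75039267, - strand: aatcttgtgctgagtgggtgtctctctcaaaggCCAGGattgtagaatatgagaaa
CPNE1, chr20:35632520-35632647, - strand: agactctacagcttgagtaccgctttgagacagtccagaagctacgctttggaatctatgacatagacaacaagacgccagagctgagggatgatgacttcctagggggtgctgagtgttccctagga
YBX1, chr1:42696180-42696281, + strand: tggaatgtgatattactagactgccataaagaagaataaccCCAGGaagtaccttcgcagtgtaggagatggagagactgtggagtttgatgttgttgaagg
HELLS, chr10:94592235-94592315, + strand: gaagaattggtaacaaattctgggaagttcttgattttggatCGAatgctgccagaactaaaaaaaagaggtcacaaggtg

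Present in all 6 IP lists were stretches of CDYL (a chromodomain protein, coding exon 2), RACK1 (a ribosomal scaffold protein, coding exon 2), HSP90AB1 (a chaperone, intron 5 into coding exon 6) and EWSR1 (an RNA-binding protein, coding exon 11):
CDYL, chr6:4891765-4891875, + strand: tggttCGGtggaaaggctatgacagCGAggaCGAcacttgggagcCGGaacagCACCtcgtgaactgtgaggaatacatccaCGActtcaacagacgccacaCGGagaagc
RACK1, chr5:181242182-181242332, - strand: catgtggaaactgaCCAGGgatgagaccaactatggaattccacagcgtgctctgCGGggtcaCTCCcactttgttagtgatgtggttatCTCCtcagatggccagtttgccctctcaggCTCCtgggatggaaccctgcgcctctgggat
HSP90AB1, chr6:44250281-44250458, + strand: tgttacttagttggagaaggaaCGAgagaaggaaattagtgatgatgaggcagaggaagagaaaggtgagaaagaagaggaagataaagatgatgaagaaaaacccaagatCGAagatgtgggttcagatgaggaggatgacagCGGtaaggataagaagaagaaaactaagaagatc
EWSR1, chr22:29292498-29292606, + strand: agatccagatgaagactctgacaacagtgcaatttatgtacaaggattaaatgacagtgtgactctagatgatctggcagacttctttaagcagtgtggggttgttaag

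CGG or CGA occurred 6 times in the CDYL stretch, 3 times in HSP90AB1, 1 time in RACK1 and 0 times in EWSR1. It occurred 1 time in the HELLS stretch and 0 times in ATP5PD, CPNE1 and YBX1, so the sets overlapped. The 4 stretches of the common set were each found in all 3 SCAF4 IP lists, and of the SCAF8 set YBX1 and HELLS were found in 3, ATP5PD in 1 and CPNE1 in 0. A match of letters describes these stretches and shows no contact.

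The SCAF8 gene checks the labels of both lines. SCAF8 (chr6:154733378-154834244, + strand) had 16, 16 and 16 clusters in its coding exons in the SCAF8 IP lists and 0 in every control IP list. The inputs of the SCAF8 line held 11, 16 and 16 coding clusters there and the parental inputs 1, 0 and 0. Introns of SCAF8, which a cDNA construct lacks, were hit in both lines, with 5, 2 and 8 clusters in its first intron in the SCAF8 IP and 3, 0 and 0 in the control IP. The coding clusters thus lay where transgene RNA and endogenous mRNA share sequence, and they cannot be told apart.

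The SCAF8 IP gave far more clusters than the control IP. Its lists held 25189, 18287 and 41502 clusters, against 9638, 2314 and 1621 in the control IP, and the groups did not overlap. The mean difference was 3.02 on the log2 scale, with an SD of 0.596 within the SCAF8 IP and 1.36 within the control IP (n = 3 each, two-sided exact permutation p = 0.1, the smallest that 3 against 3 allow). Control IP replicate 1 stood apart from the other control lists. Without that list the difference was 3.79, and without replicate 1 of both groups, which had longer reads than replicates 2 and 3, it was 3.83. Without replicate 3 of both groups it was 2.18, and relative to the input list of the same number it was 2.50. P-values measure the spread between lists, which the study calls biological replicates.

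Relative to the input of its own line and number, each SCAF8 IP list was longer and each control IP list shorter. The ratio of IP to input clusters was 2.75, 1.77 and 4.61 for SCAF8 and 0.771, 0.507 and 0.319 for the control. Clusters of the SCAF8 IP also coincided with input clusters less often: 23.8%, 35.7% and 18.1% shared 1 nt or more with a cluster of the same-number input (strand kept), against 49.8%, 58.9% and 65.5% in the control IP (exact permutation p = 0.1). With each SCAF8 IP list shortened to its highest scores, as many as in its control list, the mean difference was -21.2 percentage points in place of -32.2 and the groups overlapped.

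**Figure D1:**
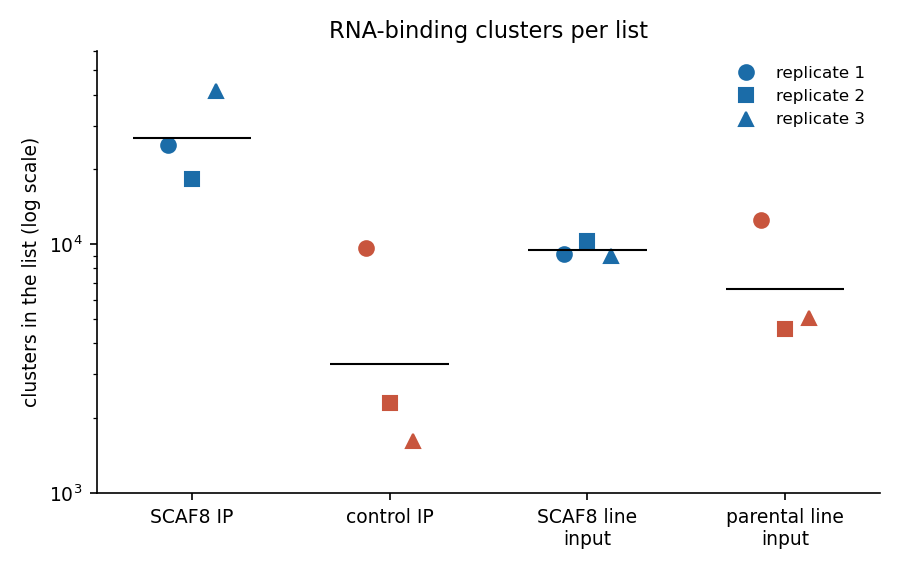
Clusters per list on a log axis for the SCAF8 IP, the control IP and the inputs of both lines (3 lists each, 1 symbol per replicate, bars at the geometric mean). The SCAF8 IP lists hold 18287 to 41502 clusters and the control IP lists 1621 to 9638, while the inputs of both lines lie between 4567 and 12493.

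Most control clusters were found again with SCAF8, but most SCAF8 clusters were not found in the control, whose lists were 2.61, 7.90 and 25.6 times shorter. Of the control IP clusters, 91.8%, 97.7% and 98.2% overlapped a cluster of any SCAF8 IP list. Of the SCAF8 IP clusters, 30.7%, 36.2% and 20.9% overlapped a cluster of any control IP list. Within the SCAF8 IP, replicate 2 shared 81.9% of its clusters with replicate 3 and 58.3% with replicate 1. When paired by replicate number, 76.4%, 85.2% and 96.6% of control clusters lay over a SCAF8 cluster, and 29.1%, 10.5% and 3.64% of SCAF8 clusters over a control cluster.

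The SCAF8 clusters were merged into 51375 regions. Of these, 13769 were present in at least 2 of 3 SCAF8 IP lists and in no control IP list (SCAF8 only), 7531 in at least 2 SCAF8 IP lists and at least 1 control IP list (common), and 30075 in 1 SCAF8 IP list. Of 10235 control regions, 858 had no SCAF8 IP cluster, and 778 of those came from control replicate 1 alone. Only 18 of 2269 control regions seen in at least 2 control lists, and 2 of 769 seen in all 3, lacked a SCAF8 cluster. Without control IP replicate 1 the regions numbered 18734 (SCAF8 only), 2566 (common) and 80 (control only), so that 1 list set most of the common class. With each SCAF8 IP list shortened to its highest scores at the length of its control list, the order turned, with 540 SCAF8 only, 831 common and 6184 control only regions.

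SCAF8 only regions lay more in introns than common regions, which lay more in 3′ UTRs and on small RNAs. Of the SCAF8 only regions 39.96% were coding, 12.7% lay in 3′ UTRs, 9.19% in first introns, 24.4% in later introns and 0.247% on small noncoding RNAs. Of the common regions 43.1% were coding, 16.9% lay in 3′ UTRs, 5.72% in first introns, 19.2% in later introns and 1.71% on small noncoding RNAs. Common regions were longer (median 219 nt against 179 nt) and more often present in all 3 SCAF8 IP lists (68.4% against 28.9%). An input cluster of either line was absent from 57.4% of SCAF8 only regions and from 16.6% of common regions. The strictest set, the 1641 regions in 3 SCAF8 IP lists and in no control or input list, was 53.3% coding, 6.64% 3′ UTR, 8.35% first intron and 19.2% later intron. Its share in later introns was thus that of the common regions. Regions in 1 SCAF8 IP list were the most intronic, at 11.7% first intron and 31.3% later intron.

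The same contrast was seen inside each SCAF8 IP list, whose clusters make up these regions. First introns took 9.91%, 9.35% and 11.0% of clusters without a control cluster, against 5.23%, 5.17% and 5.88% of those with one. For 3′ UTRs the values were 15.4%, 10.0% and 12.1% without and 19.01%, 15.7% and 17.7% with a control cluster. Small noncoding RNAs took 0.326%, 0.257% and 0.165% without and 1.81%, 1.75% and 1.56% with one. In all 3 lists the order was thus the same for these features. The 3 splits used the same control lists, so they are not independent of each other or of the regions. Control IP replicate 1 was overlapped by 29.1%, 33.8% and 19.6% of SCAF8 IP clusters, and any control list by 30.7%, 36.2% and 20.9%. Clusters with a control cluster were longer (median 178, 156 and 176 nt against 145, 132 and 140 nt), which by itself gives them more chance of an overlap. Their median score stood lower, at the 39.8, 45.1 and 38.1 percentile of their list against 52.0, 50.9 and 51.4, so a high score did not mark the shared clusters.

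**Figure D2:**
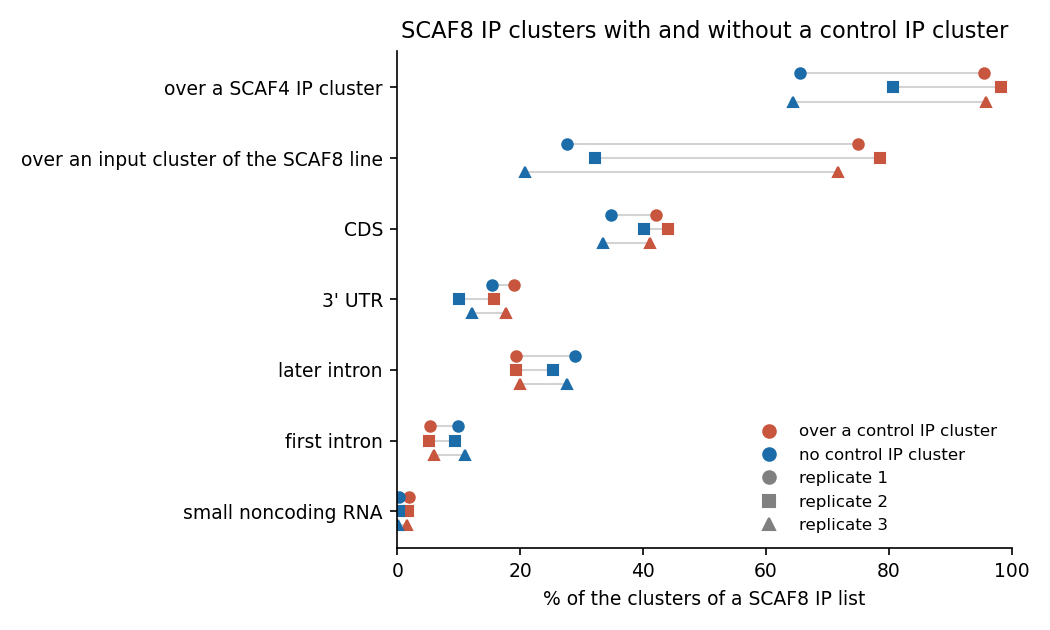
Clusters of each SCAF8 IP list split by whether they lay over a control IP cluster, as % of the clusters on each side of the split, for 7 properties (3 symbols for 3 replicates, grey lines join the same list). Clusters without a control cluster lie lower for input overlap (20.7% to 32.1% against 71.8% to 78.6%) and higher for first introns (9.35% to 11.0% against 5.17% to 5.88%).

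Set list against list, 5 of 12 annotated features separated the IPs without overlap of the groups. First introns, which splicing removes from the transcript, took 8.47%, 7.84% and 9.92% of SCAF8 IP clusters and 6.01%, 3.50% and 6.79% of control IP clusters (means 8.74% ± 1.06 and 5.43% ± 1.72, SD, n = 3, exact permutation p = 0.1, adjusted p = 0.24 over 12 features). This order turned when SCAF8 IP lists were shortened to their highest scores (difference -0.81 percentage points). The inputs did not show it: first introns took 6.84% to 9.25% of clusters in the SCAF8 line and 11.3% to 12.7% in the parental line. Later introns overlapped between the IPs, at 26.0%, 23.1% and 26.0% against 21.6%, 13.8% and 26.3%.

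Small noncoding RNAs, such as snRNAs, snoRNAs and 7SL, went the other way, with 0.782%, 0.798% and 0.458% in the SCAF8 IP and 1.58%, 4.28% and 4.81% in the control IP (exact permutation p = 0.1, adjusted p = 0.24). Exons of long noncoding RNAs took 1.49%, 1.51% and 1.56% against 1.63%, 3.50% and 4.26%, and exons of pseudogenes 2.16%, 2.00% and 1.67% against 3.06%, 5.32% and 3.33%. Every SCAF8 IP list thus had a lower share than every control IP list for these 3 noncoding classes. The lists differed greatly in length, and a lower share does not mean fewer clusters. In the inputs, small noncoding RNAs took 1.24% to 1.79% of clusters in the SCAF8 line and 1.23% to 2.43% in the parental line. Between the IPs, their difference shrank from -2.88 to -1.09 percentage points with scores at or above the median of the list. Without clusters over an input cluster it was -0.59. Reads of a pseudogene can belong to its parent gene, so that class is uncertain. The long noncoding RNA difference was lost without clusters over an input cluster (0.07 percentage points).

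Coding exons held the largest share in both IPs and did not separate them, at 37.0%, 41.5% and 35.0% with SCAF8 and 39.3%, 42.0% and 37.1% in the control (exact permutation p = 0.5). The 3′ UTRs did not separate them either, at 16.5%, 12.1% and 13.3% against 18.3%, 16.1% and 7.77% (exact permutation p = 1). Downstream flanks of 2 kb held 1.18%, 1.71% and 2.10% against 1.18%, 1.17% and 0.864%. There the lowest SCAF8 value and the highest control value were equal to 3 digits. For the downstream flanks the groups were thus barely apart, and the shortened lists gave a difference of -0.01 percentage points.

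A cluster that spans an exon-intron boundary comes from RNA that keeps the intron. Among clusters within multi-exon protein-coding genes, those spanning a 5′ splice site made up 11.2%, 14.7% and 13.0% in the SCAF8 IP and 9.29%, 7.66% and 8.01% in the control IP (means 13.0% ± 1.79 and 8.32% ± 0.856, SD, n = 3, exact permutation p = 0.1, adjusted p = 0.15 over 6 classes). Clusters covering a whole exon with intron on both sides made up 5.68%, 5.95% and 5.92% against 4.71%, 1.53% and 3.45%. Both groups were separate in each class. The same held with higher scores alone and with shortened lists, where the differences were 5.86 and 5.57 percentage points. In the inputs, 5′ splice sites were spanned by 6.12% to 7.65% of clusters in the SCAF8 line and 5.51% to 6.30% in the parental line. Split by control overlap, the SCAF8 IP clusters themselves did not repeat the order of the IPs. Whole exons took 4.55%, 5.03% and 4.89% of clusters without a control cluster and 8.35%, 7.61% and 9.80% of those with one. For 5′ splice sites the values were mixed, at 10.6%, 15.1% and 13.1% without and 12.6%, 14.2% and 12.9% with one.

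Clusters lying within 1 exon made up 40.4%, 39.96% and 36.6% in the SCAF8 IP and 48.6%, 66.7% and 44.01% in the control IP, again without overlap. That difference of -14.1 percentage points was -7.83 without replicate 2 and -7.78 with shortened lists, where the groups overlapped. The 3′ splice sites did not separate the groups, at 9.61%, 9.47% and 8.49% against 11.4%, 7.23% and 15.2%. Control IP clusters were shorter in replicates 2 and 3 (median 130 and 125 nt) than SCAF8 IP clusters (140 and 146 nt), while replicate 1 had 153 and 154 nt. A shorter cluster spans a boundary less often, and the part of length in these differences was not tested.

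**Figure D3:**
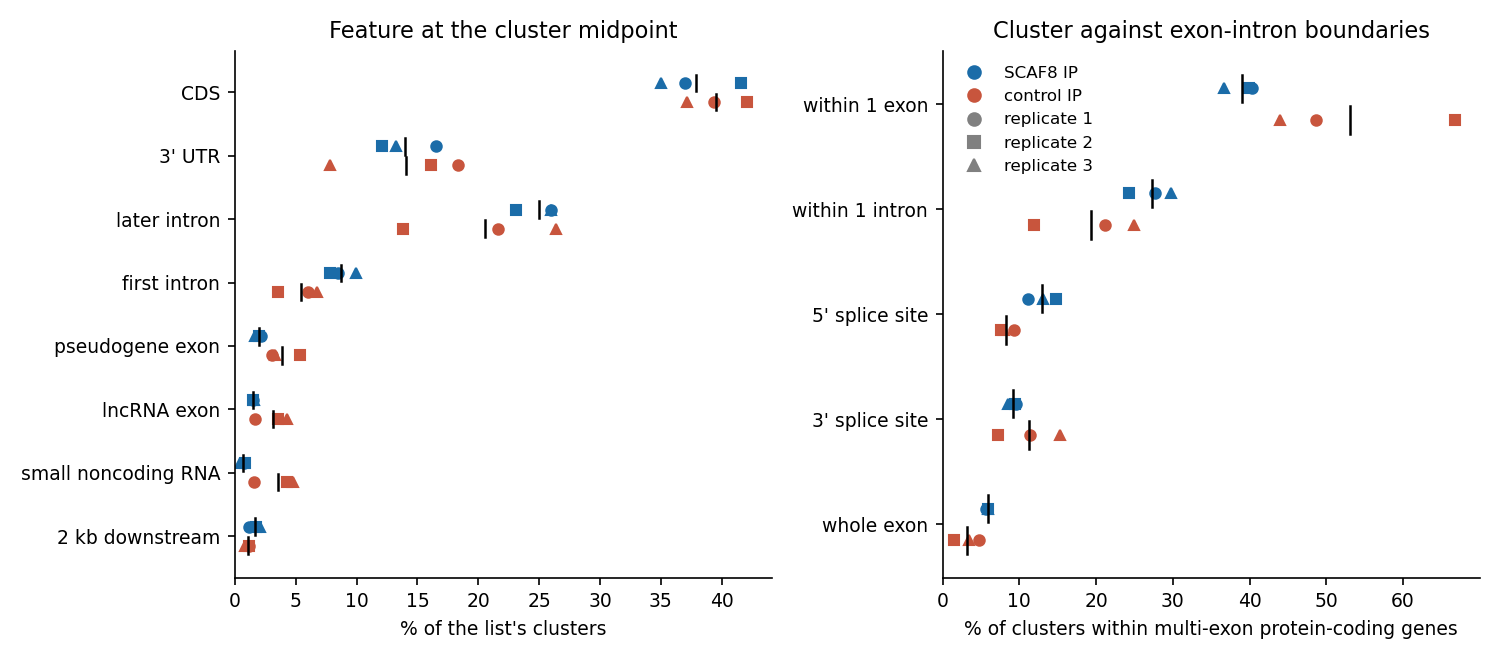
Left, % of each list's clusters by the feature at the cluster midpoint. Right, % of clusters within multi-exon protein-coding genes that span or avoid an exon-intron boundary. Each symbol is 1 list (SCAF8 IP blue, control IP red) and black ticks mark means of 3 lists. SCAF8 IP lists lie above control IP lists for 5′ splice sites (11.2% to 14.7% against 7.66% to 9.29%) and below them for small noncoding RNAs (0.458% to 0.798% against 1.58% to 4.81%).

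In the full lists base composition did not separate the IPs. In 100 nt around the cluster midpoint, GC content averaged 47.8%, 49.9% and 49.8% in the SCAF8 IP and 49.2%, 50.7% and 49.6% in the control IP (exact permutation p = 0.6). CGG or CGA on the transcribed strand occurred in 62.1%, 68.2% and 65.9% of SCAF8 IP windows and 66.6%, 75.2% and 70.9% of control IP windows (exact permutation p = 0.2). The CAG motif of 5 letters occurred in 38.0%, 43.2% and 43.6% against 39.8%, 40.5% and 40.1%, and CTCC or CACC in 46.4%, 47.9% and 48.3% against 48.4%, 50.6% and 45.7%. None of the 5 composition measures was without overlap. With shortened SCAF8 IP lists 3 were, with differences of -1.97 for GC, 2.48 for T and -9.43 for CGG or CGA (percentage points). For the 3 motifs the differences between the means (SCAF8 minus control) were -5.46, 1.44 and -0.72 percentage points. Inside replicates 2 and 3, the CAG motif was more common in SCAF8 clusters without a control cluster (44.6% and 44.4%) than in those with one (40.7% and 40.6%), but in replicate 1 the order was opposite (37.3% and 39.6%).

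By gene, 9875 genes held a cluster in either IP. Of these, 3190 (32.3%) were SCAF8 only, present in at least 2 SCAF8 IP lists and no control IP list. Another 3785 (38.3%) were common, 2792 were in 1 SCAF8 IP list and 108 were in control IP lists alone. Only 618 genes (6.26%) were in all 3 control IP lists. SCAF8 only genes had few clusters, with a median of 4 over the 3 SCAF8 IP lists against 10 for common genes, and 85.6% were protein coding. Of the common genes, 2194 were in control IP replicate 1 and no other control list, and without that list SCAF8 only genes numbered 5384 and common genes 1591. The gene classes thus depended strongly on that list, which was the longest of the control lists and had longer reads. Whether its length or another of its properties set the classes was not tested.

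Many SCAF8 only genes had no cluster in any input. Input clusters of both lines were present on 758 of them, of the parental line alone on 332, of the SCAF8 line alone on 726 and of neither on 1374. In 207 genes at least 2 inputs of the SCAF8 line and no parental input held a cluster. For such genes a line difference in the RNA and an effect of the IP cannot be told apart.

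The 10 SCAF8 only genes with the most clusters were DNAH17, ENSG00000267605, PPP2R1A, WWOX, CREB5, CUX1, RPS15A, ZNF551, DYNC1LI2 and PHRF1. DNAH17 (an axonemal dynein heavy chain, chr17:78423697-78577396) had 2, 58 and 105 SCAF8 IP clusters and 0 in each control IP list. Its input clusters numbered 0, 31 and 18 with the transgene and 0 in each parental input. DNAH17 was thus nearly missing from replicate 1 in IP and input alike, and had no cluster in any parental list. Clusters in replicates 2 and 3 were both coding (34 and 48) and intronic (24 and 56).

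PPP2R1A, the scaffold subunit of protein phosphatase 2A (chr19:52170936-52229518), had 11, 9 and 30 SCAF8 IP clusters and no control IP cluster. Both lines held it in their inputs, with 4, 12 and 10 clusters (SCAF8) and 3, 1 and 1 (parental). Its SCAF8 IP clusters lay in coding exons (5, 5 and 6) and in the first intron (4, 2 and 14). Of the 10 genes, PPP2R1A and RPS15A alone had a cluster in every input of both lines.

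The long noncoding RNA ENSG00000267605 (chr19:37235507-37304395) had 5, 21 and 52 SCAF8 IP clusters, all intronic. WWOX, an oxidoreductase gene over a common fragile site, had 38, 1 and 4, nearly all from replicate 1, and its input clusters were in replicate 1 alone in both lines (16 and 7). CUX1, a homeobox transcription factor, had 9, 6 and 24 and CREB5, a CREB family factor, 3, 7 and 29. WWOX and CREB5 thus varied widely between replicates of the SCAF8 IP. RPS15A, a ribosomal protein gene, ran at 7, 11 and 17, ZNF551, a zinc finger gene, at 14, 7 and 13, DYNC1LI2, a dynein light intermediate chain, at 12, 4 and 16, and PHRF1, a ubiquitin ligase that binds the RNAPII C-terminal domain, at 7, 7 and 17.

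The genes that led the control IP were all found with SCAF8 too, and noncoding nuclear RNAs were among them. XIST, the X-inactivation RNA (chrX:73820649-73852723), had 49, 51 and 56 control IP clusters and 32, 51 and 54 SCAF8 IP clusters. MALAT1, a nuclear-speckle RNA, had 9, 16 and 14 against 8, 17 and 13. Control and SCAF8 numbers of both RNAs overlapped although the lists differed greatly in length. ENSG00000280441 and ENSG00000278996, which are long noncoding genes on the short arm of chromosome 21, had 37, 31 and 27 and 18, 15 and 17 control IP clusters against 32, 44 and 42 and 13, 20 and 19. Near-identical copies of such sequence exist, so their placement is uncertain.

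The other 6 leading control genes code for nuclear RNA-binding proteins or, for GPI, a glycolytic enzyme. SRRM2, a spliceosomal scaffold, had 16, 15 and 15 control IP clusters against 26, 21 and 25 with SCAF8. SFPQ had 28, 7 and 8 against 31, 38 and 39, and SON 19, 11 and 9 against 30, 27 and 36. The remaining ones were DAZAP1 (26, 7 and 13 against 37, 48 and 58), HNRNPH1 (18, 8 and 16 against 23, 25 and 27) and GPI (24, 4 and 10 against 29, 26 and 34). For SRRM2, DAZAP1, SFPQ, SON, HNRNPH1 and GPI each SCAF8 IP list held more clusters than any control list of the same gene.

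**Figure D4:**
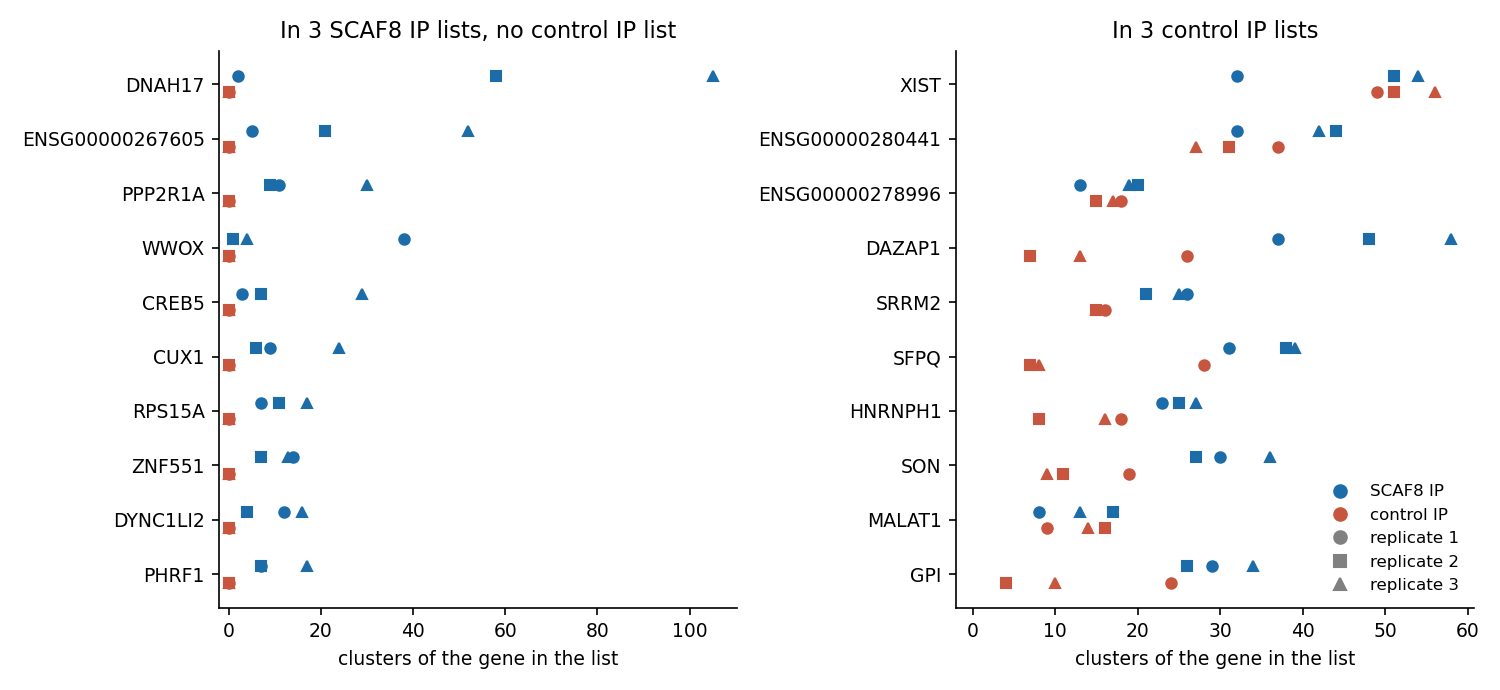
Clusters per gene in each list (SCAF8 IP blue, control IP red, 1 symbol per replicate). Left, the 10 genes with the most SCAF8 IP clusters among genes in all 3 SCAF8 IP lists and no control list, where every control value is 0 and DNAH17 spans 2 to 105. Right, the 10 genes with the most control IP clusters, where XIST has 49 to 56 control and 32 to 54 SCAF8 clusters.

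Shares of a list's clusters per gene were compared with limma over 4732 genes with at least 5 clusters in the 6 lists. With 0.5 cluster added to each gene in every list, 12 genes (0.254%) had a higher share in the SCAF8 IP and 605 (12.8%) a lower one (adjusted p below 0.05 by limma). With an added amount in proportion to list length, chosen after seeing the data, the calls were 970 higher (20.5%) and 36 lower (0.761%). Of the 970, 944 had no control IP cluster. The number of calls in each direction thus rested on how an empty gene in a short list was treated. The median difference over all tested genes moved from -0.94 to 1.22 (log2) between both settings. With SCAF8 IP lists shortened to the control length, 0 genes were called by limma in either direction (44 higher and 81 lower at an unadjusted p under 0.05), and voom weights also gave 0 calls (62 and 1080 unadjusted).

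The genes called higher under both settings were DNAH17, E2F3, ENSG00000267605, PPP2R1A, QSOX2 and SLFNL1-AS1. With at most 1 control IP cluster each, these 6 passed the minimum of 5 clusters through the SCAF8 IP, so being called under both settings is no further support. E2F3, a cell-cycle transcription factor, had 16, 12 and 29 SCAF8 IP clusters against 1, 0 and 0 (log2 difference 1.65, SE 0.53, limma adjusted p = 0.028). Its call held under 5 of 14 alternatives (adjusted p from 0.0173 to 0.56 by limma) and was lost on leaving out any 1 replicate (0.135, 0.166 and 0.201). QSOX2, a sulfhydryl oxidase, had 9, 27 and 29 against 1, 0 and 0, and SLFNL1-AS1, an antisense RNA, 14, 15 and 25 against 1, 0 and 0. The other 6 genes called with 0.5 added included RFC3 (41, 28 and 82 against 10, 0 and 0), POLA1 (42, 17 and 36 against 4, 0 and 0), SFMBT2 (16, 25 and 51 against 5, 0 and 0), DLEU2 (18, 21 and 49 against 4, 0 and 0) and RPTOR (21, 17 and 46 against 4, 0 and 0). RFC3 and POLA1, which encode a clamp loader subunit and the catalytic subunit of DNA polymerase alpha, were not called with the amount in proportion (adjusted p = 0.0939 and 0.0597 by limma). Parental inputs held 30, 13 and 14 clusters of RFC3 and 36, 4 and 4 of POLA1. The share of DNAH17 per 1000 clusters was 0.0794, 3.17 and 2.53, and without replicate 2 its adjusted p was 0.1 by limma.

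In the lower direction 30 genes were called under both settings. XIST took 1.27, 2.79 and 1.30 of 1000 clusters in the SCAF8 IP and 5.08, 22.0 and 34.5 in the control IP (log2 difference -3.24, SE 0.93, limma adjusted p = 0.0148). Its call held under 7 of 14 alternatives and was lost without replicate 2 (adjusted p = 0.112 by limma). EEF2, a translation elongation factor, took 0.556, 0.930 and 0.458 against 1.56, 2.16 and 4.32 (log2 difference -2.03, SE 0.62, limma adjusted p = 0.0191), and its call also held under 7 of 14 alternatives (0.000151 to 0.401). MALAT1, SRRM2, HNRNPH1, HSP90AA1, PKM and ACTG1 were called as well. Counts of XIST and MALAT1 clusters overlapped between the IPs and were lowest in replicate 1 of each IP. A lower share of a list is not a measure of less RNA. The genes with the largest differences with 0.5 added were TSC22D3, REEP2, H2BC19P, KCTD15, CDH1, SNORD101, RPS24P19, H4C15 and 2 copies of 5.8S rRNA. Each of these had at most 11 clusters in either group, as in CDH1 with 0, 1 and 1 against 1, 1 and 1. Over the tested genes, 1296 (27.4%) had shares without overlap and higher in the SCAF8 IP, and 351 (7.42%) higher in the control IP. A gene in all 3 SCAF8 IP lists and no control IP list is apart by definition. Before the filter on cluster number, 1343 genes were of that kind, so the larger count is no support for a difference.

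Genes of the RNAPII machinery were spread over the classes. Of 12 RNAPII subunit genes 10 had a cluster, of which 5 were SCAF8 only, 3 common and 2 in 1 SCAF8 IP list. POLR2A, the catalytic subunit, was common with 9, 5 and 16 SCAF8 IP clusters against 2, 3 and 2. POLR2E (6, 4 and 10 against 0, 0 and 0) and POLR2B (4, 4 and 7 against 0, 0 and 0) were SCAF8 only, and POLR2J (3, 3 and 7 against 1, 0 and 0) was common. Their SCAF8 only share of 50.0% stands beside 32.3% of all genes, on 10 genes. None of the 6 tested subunits was called with 0.5 added. With the amount in proportion, POLR2E and POLR2B were called higher (limma adjusted p = 0.0102 for each), as were 20.5% of all genes tested. Like 944 of those 970 genes, both had no control IP cluster. They passed the minimum of 5 clusters through the SCAF8 IP alone, so these calls are no further support.

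Of the 31 transcription elongation factor genes with a cluster, 10 were SCAF8 only, 18 common and 3 in 1 SCAF8 IP list (32.3% SCAF8 only, as over all genes, and 58.1% common, beside 38.3% of all genes). SUPT5H, a subunit of the DSIF pausing factor, had 10, 11 and 14 clusters against 4, 0 and 1, SUPT16H, a histone chaperone subunit, 11, 6 and 11 against 2, 0 and 0, SSRP1, its partner, 9, 3 and 9 against 4, 3 and 0, and PHF3, which binds the RNAPII C-terminal domain, 9, 3 and 10 against 2, 1 and 0. Of 18 cleavage and polyadenylation factor genes, 6 were SCAF8 only (33.3%, beside 32.3% of all genes) and 12 common (66.7%, beside 38.3%). CPSF6 had 13, 7 and 14 against 4, 0 and 0, WDR33, which reads the polyadenylation signal, 5, 5 and 16 against 3, 0 and 0, CPSF7 8, 4 and 9 against 7, 2 and 0, and SYMPK, the scaffold, 2, 4 and 10 against 2, 0 and 1. Median share differences of these lists were -0.71 and -1.02 (log2), beside -0.94 over all genes tested. With the amount in proportion they were 1.35 and 0.86 beside 1.22.

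All 8 genes of CTD-interacting proteins had a cluster, 7 of them common. Beside SCAF8 itself, RPRD1B had 26, 12 and 30 clusters against 10, 0 and 0, U2SURP, a spliceosome component, 10, 10 and 10 against 1, 0 and 2, and CHERP 4, 11 and 14 against 0, 0 and 2. The SR proteins, which regulate splicing, were nearly all common (14 of 15, 93.3%, beside 38.3% of all genes) and 9 of 15 were in all 3 control lists (6.26% of all genes). SRSF1 had 13, 15 and 15 clusters against 10, 5 and 2, SRSF4 18, 19 and 24 against 5, 0 and 1, and TRA2B 19, 14 and 27 against 8, 2 and 3. Of the very long protein genes 16 of 19 were common, with PRKDC at 37, 46 and 71 against 18, 1 and 3, UBR4 at 17, 33 and 59 against 7, 1 and 1 and HUWE1 at 33, 16 and 37 against 14, 0 and 2.

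Abundant cytoplasmic mRNAs were found in both IPs. Over all genes 38.3% were common. All 16 genes of glycolysis and the cytoskeleton with a cluster were common, as were 19 of 20 translation factors, 17 of 20 chaperones and 67 of 81 ribosomal protein genes. Of the translation factors 13 were in all 3 control lists, as were 6.26% of all genes. ENO1 had 17, 19 and 26 SCAF8 IP clusters against 11, 5 and 3, PKM 13, 11 and 11 against 9, 7 and 4, TUBB 5, 5 and 10 against 3, 4 and 1, and ACTG1 5, 5 and 6 against 6, 5 and 3. The numbers of ACTG1 were alike in both IPs although the lists differed in length by 2.61, 7.90 and 25.6 times. EIF4G1 had 22, 20 and 27 against 7, 1 and 1, EIF3B 11, 15 and 29 against 8, 6 and 5, EEF1D 19, 25 and 30 against 11, 2 and 3, and HSP90AA1 12, 11 and 11 against 12, 10 and 2. HSP90AB1 ran at 12, 11 and 14 against 8, 7 and 3, CCT5, a chaperonin subunit, at 10, 13 and 14 against 8, 5 and 3, and HSPA8 at 9, 7 and 7 against 7, 5 and 0. Of the ribosomal protein genes RPL27A had 6, 19 and 28 against 3, 1 and 1, RPS19 14, 11 and 17 against 6, 1 and 2, RPL3 12, 12 and 16 against 6, 3 and 1, and RPL32 9, 12 and 17 against 4, 2 and 1.

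Histone and small RNA genes stood nearest to the control. Of 46 replication-dependent histone genes with a cluster, 1 was SCAF8 only, 37 were common, 6 were in 1 SCAF8 IP list and 2 were in control lists alone (over all genes, 32.3% were SCAF8 only and 38.3% common). With 0.5 added, 22 of 26 tested histone genes were called lower, beside 12.8% of all genes tested, and none with the amount in proportion, at a median share difference of -2.70 or -2.14 (log2), beside -0.94 or 1.22 over all genes tested. H4C14 had 5, 6 and 14 SCAF8 IP clusters against 4, 9 and 5, H4C15 1, 1 and 6 against 2, 4 and 3, H3C15 3, 1 and 3 against 1, 1 and 1, and H4C2 2, 2 and 2 against 2, 2 and 1. These short intronless genes have near-identical copies, among which reads cannot be placed with certainty. Of 17 abundant small RNA genes 16 were common, with 50 SCAF8 IP clusters against 36 in the control IP. RN7SK, a regulator of RNAPII elongation, RN7SL1 and RN7SL2 had 1 cluster in each of the 6 lists and RMRP 1, 2 and 1 against 1, 1 and 0.

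Long noncoding RNAs were mostly common (10 of 13 genes, 76.9%, beside 38.3% of all genes). NEAT1, the paraspeckle RNA, had 43, 23 and 34 clusters against 19, 1 and 1, JPX 35, 11 and 22 against 11, 0 and 0, and TUG1 16, 12 and 16 against 9, 1 and 0. NEAT1 and JPX thus had few or no clusters in the short control lists, where XIST and MALAT1 had as many as in the SCAF8 IP. No cluster was assigned to any of the 37 genes of the mitochondrial genome. The pseudogene MTCO1P12 on chromosome 1 had 5, 5 and 6 SCAF8 IP clusters against 7, 6 and 7 in the control IP. As stated above, reads of a pseudogene can belong to its parent gene.

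**Figure D5:**
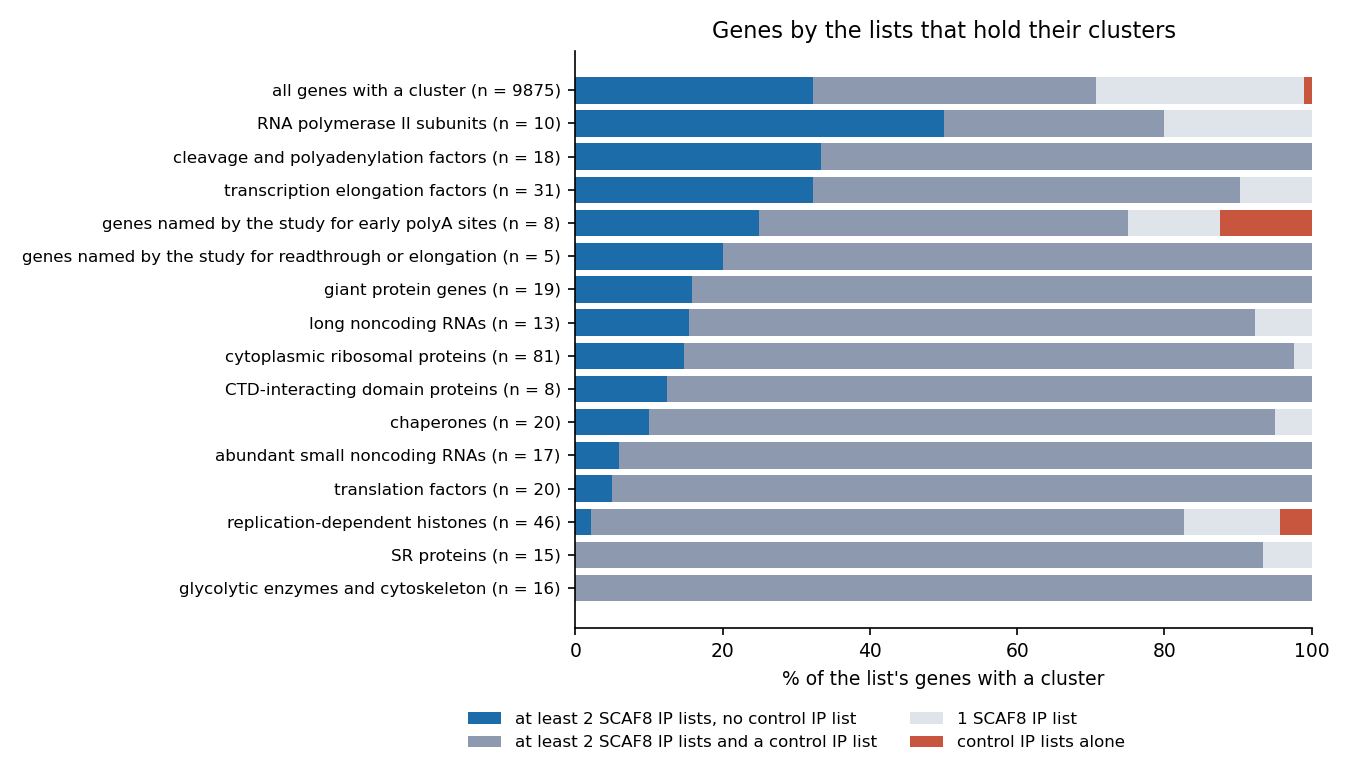
Genes of each list with a cluster in either IP (n in brackets), as % in at least 2 SCAF8 IP lists and no control list (blue), in at least 2 SCAF8 IP lists and a control list (grey), in 1 SCAF8 IP list (pale) or in control lists alone (red). RNAPII subunits have 50.0% SCAF8 only, all genes 32.3%, and glycolytic and cytoskeletal genes 0%.

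The genes that the study describes for early polyadenylation sites or readthrough were chosen by the study and not on these lists alone, so they are not an independent choice. Of the 10 early-site genes 8 had a cluster, 2 of them SCAF8 only (25.0%) and 4 common (50.0%). Over all genes these shares were 32.3% and 38.3%. HP1BP3, a heterochromatin protein, had 11, 7 and 11 SCAF8 IP clusters against 3, 1 and 0, AKAP13, a kinase anchor, 5, 2 and 7 against 1, 0 and 0, DNAJB6, a co-chaperone, 4, 3 and 6 against 0, 0 and 1, and USP15, a deubiquitinase, 5, 3 and 2 against 1, 0 and 0. DNAJC12 (2, 0 and 1) and RAD51C (1, 0 and 2) had no control IP cluster. COX10 had 0, 0 and 3 against 0, 0 and 1, and ZC3HAV1, an antiviral zinc finger protein, had 0 with SCAF8 and 1, 0 and 0 in the control. CNTLN and BCL11A had no cluster in either IP. None of the 4 early-site genes tested was called under either setting. Over all genes tested, 0.254% were called higher and 12.8% lower with 0.5 added, and 20.5% and 0.761% with the amount in proportion. On 4 genes, the absence of calls says little.

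All 5 genes shown for readthrough or elongation had a cluster. ATG5, an autophagy factor (chr6:106045423-106325791), was SCAF8 only with 2, 3 and 5 clusters, of which 2, 3 and 2 were coding. Its inputs held 1, 1 and 1 clusters (SCAF8) and 3, 0 and 0 (parental). FOXO3, a forkhead transcription factor (chr6:108559835-108684774), had 13, 10 and 16 against 6, 0 and 0, TRIM33 5, 1 and 4 against 2, 0 and 0, MACIR 3, 1 and 2 against 1, 0 and 0, and SMAD2 2, 0 and 2 against 1, 0 and 0. In each of these 4 the control clusters came from control IP replicate 1 alone. ATG5 was not called with 0.5 added (log2 difference -0.15, limma adjusted p = 0.879). With the amount in proportion it was called higher (log2 difference 2.28, limma adjusted p = 0.0102), as were 20.5% of all genes tested. Like 944 of those 970 genes, it had no control IP cluster.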

How the data were processed

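Per the labels, cells were labelled with 4SU, crosslinked, split into soluble and chromatin extracts and treated with RNase I before FLAG IP. The authors trimmed reads (cutadapt, Trim Galore), aligned them to GRCh38 with Bowtie2 2.2.9, removed duplicates (Picard), merged both fractions of a replicate and called clusters with PARalyzer. The deposited lists give each cluster's position and a score of unnamed scale, precede the study's filters against input and control, and hold no counts. Start positions were read as 0-based.

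Clusters were assigned by midpoint and strand to GENCODE 44 genes with 2 kb flanks, small noncoding RNAs first, and to the coding isoform with the most exonic sequence. Lists were compared by exact two-sided permutation (3 against 3), features adjusted by Benjamini-Hochberg. Gene shares (clusters per 1000 of the list) were tested with limma 3.58.1 (R 4.3.3, mean-variance trend) after adding 0.5, for genes with at least 5 clusters, and both settings were tested on simulated data. There the fixed 0.5 called some unchanged genes lower, and the amount in proportion called more of them higher, so counts in those directions include false calls. Python 3.11.15, pysam 0.24.0 and pandas 2.3.3 did the rest. Overlap means at least 1 nt on 1 strand. Confidence intervals were not given, because depth is unknown.

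Members and gene lists were chosen with earlier results of these data known. Named genes were all genes the study names for early polyadenylation or readthrough, the 10 with most clusters in 3 SCAF8 IP and 0 control lists, the 10 with most clusters in 3 control lists, the 10 largest called differences without overlap in each direction, and up to 4 members with most clusters per other list. E2F3, QSOX2 and SLFNL1-AS1 and other genes called under both settings were also named after their values were seen. SCAF4 inputs were not used.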

Additional observations from a re-analysis of the deposited data

Results flagged for a closer look

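The SCAF4 IP lists enter no comparison above, yet they held clusters at many places where the control IP held none. Of the 13769 SCAF8 only regions, 8560 were also present in at least 2 of 3 SCAF4 IP lists (62.2%, against 90.4% of the common regions and 26.3% of regions in 1 SCAF8 IP list). Of the 3190 SCAF8 only genes, 2552 (80.0%) were present in at least 2 SCAF4 IP lists. Both tagged lines had longer lists than the parental line, and the part of list length in these shares was not tested.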

How the results depend on the processing

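The longer SCAF8 lists, the overlap with input, the 5′ splice sites, the whole exons and the small noncoding RNAs kept their direction in each alternative run. For list length, the cut at the median score keeps the same part of every list, so that run could not change it. Shortened lists were not compared for length. To see whether replicate numbers pair the lists of both IPs, their deviations were compared over genes. Lists of the same number had correlations of 0.178, 0.0682 and 0.2, and lists of different numbers -0.167 to 0.0309. Each same-number value was thus the higher, though all were low. The main comparisons used no pairing, and pairing by number was run as an alternative. With the replicate number as a block, 10 genes were higher and 533 lower, and CDS (-1.66), clusters within 1 intron (7.89), T content (0.89) and CGG or CGA (-5.46) moved 1 way in all 3 pairs.
Leaving out 1 replicate number in turn gave ranges of -2.92 to 1.82 for 3′ UTR, -2.23 to -1.30 for CDS, 1.99 to 6.84 for later introns, -4.26 to 0.24 for 3′ splice sites, 5.67 to 9.44 for within 1 intron, 0.73 to 0.98 for T content, -5.95 to -4.73 for CGG or CGA, 0.41 to 3.06 for the CAG motif and -2.36 to 0.27 for CTCC or CACC (percentage points). Regions ranged from 4784 to 11803 (SCAF8 only), 2368 to 6498 (common) and 136 to 1593 (control only), genes from 1449 to 3647, 1496 to 3538 and 45 to 241, and called genes from 0 to 7 higher and 50 to 523 lower.
With scores at or above the median of the list, lncRNA exons (-0.41) and 2 kb downstream (0.57) overlapped between groups and CTCC or CACC turned (0.25). With SCAF8 lists shortened to the control length, CDS (2.00), 3′ UTR (11.97), first intron (-0.81), later intron (-3.40), 2 kb downstream (-0.0092), 3′ splice site (1.56), within 1 intron (-5.43) and the CAG motif (-0.71) turned, lncRNA exons (-1.46), within 1 exon (-7.78) and input overlap (-21.18) overlapped between groups, and GC (-1.97), T (2.48) and CGG or CGA (-9.43) no longer did. With any annotated exon, 3′ UTR turned (0.013), and with the cluster itself, CTCC or CACC (1.65). Without clusters over an input cluster, CDS was apart (-9.33), lncRNA exons turned (0.065), and pseudogene exons (-1.99) and 2 kb downstream (0.76) overlapped.
Regions and genes SCAF8 only numbered 3982 and 1343 in 3 of 3 lists. With higher scores alone, regions numbered 5892 (SCAF8 only), 2110 (common) and 1647 (control only) and genes 2250 (common) and 191 (control only). With shortened lists these were 540, 831 and 6184 regions and 289, 1407 and 1187 genes. Without clusters over inputs, common and control only were 1299 and 2287 regions and 2197 and 227 genes. Without control IP replicate 1 they were 2566 and 80 regions, and 1591 and 22 genes beside 18734 regions and 5384 genes SCAF8 only.
Genes called higher and lower were 2 and 1097 with 1 cluster added, 5 and 235 with at least 10 clusters, 23 and 3451 with at least 1, 970 and 36 with the amount in proportion, 34 and 2107 without control IP replicate 1, and 0 and 0 with centring on the median (229 and 585 at an unadjusted p under 0.05), with voom weights and with shortened lists. The shortened lists test fewer genes (1596). Depth is unknown, so no limit of detection can be given.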

Other observations

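DNAH17, KLHL11 and THOC6 had clusters in the SCAF8 line and not in the parental line before any IP. DNAH17 had 14 and 14 clusters in SCAF4 IP replicates 2 and 3 and 0 in replicate 1, the same replicates in which the SCAF8 IP held 58 and 105 and the SCAF8 input 31 and 18. KLHL11, an adaptor of ubiquitin ligases, had 1, 3 and 9 SCAF8 IP clusters and input clusters of 2, 5 and 3, against 0 in all control IP and parental input lists. THOC6, a subunit of the mRNA export complex THO, had 1, 10 and 14 SCAF8 IP clusters and 0, 4 and 5 input clusters, again with 0 in all parental lists. KLHL11 and THOC6 were picked after their values were seen. Whether the parental line transcribes these genes less, or its shorter lists missed them, was not tested.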
